A study of Mus musculus with 6 samples.

Results

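Spermatogonial differentiation is followed here through 5 mouse genes, chosen by symbol: Stra8, Sohlh1, Sohlh2, Kit and Kitl. All 5 were measured, each by 1 row of a table of 25631 RefSeq transcript accessions, in which 17277 different genes could be named. Expression was measured in 6 testes samples of male mice at postnatal day 9, with 1 sample on each NimbleGen array. The 3 Dmrt1 KO samples were Cre-positive and the 3 Control samples Cre-negative, and the labels give NGN-cre as a genotype for both groups. The labels do not spell out the promoter that drives the Cre, the cells in which it acts or the targeted Dmrt1 allele, and they do not say whether the Control samples carried that allele. Every Dmrt1 KO sample is Cre-positive and every Control sample is not, so Cre and the targeting of Dmrt1 cannot be told apart. The labels do not say whether the 3 samples of a group are separate animals, and p-values therefore describe the spread among these arrays, which may be technical.

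In the postnatal testis, undifferentiated spermatogonia become differentiating spermatogonia under the influence of retinoic acid, and their descendants enter meiosis. The differentiating cells carry the receptor tyrosine kinase KIT on their surface, and its ligand KITL (stem cell factor) comes from the neighbouring Sertoli cells. SOHLH1 and SOHLH2 are germ cell transcription factors of the basic helix-loop-helix (bHLH) family, which bind E-box sequences and are needed in mouse for spermatogonial differentiation and for normal Kit expression. STRA8 is induced by retinoic acid and is needed for entry into meiosis. DMRT1 is a DNA-binding protein of germ cells and Sertoli cells. At this age the testis holds spermatogonia and the earliest meiotic cells, without the later germ cells of the adult.

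The promoters of Stra8 and Sohlh1 are printed because these were the 2 genes of the 5 whose Dmrt1 KO and Control arrays did not overlap. The sequences are the 250 bases before the RefSeq start on assembly GRCm38.p6, 5′ to 3′ on the strand of the gene. Stra8 lies on the plus strand at chr6:34920698-34920947, and the capitals mark AGGTCA, a hexamer bound by retinoic acid receptors and other nuclear receptors, and ACAATGT, which is ACATTGT, the core of the known DMRT1 motif, read on the other strand. Sohlh1 lies on the minus strand at chr2:25847249-25847498, and the capitals mark CACGTG, a palindromic E-box.
Stra8: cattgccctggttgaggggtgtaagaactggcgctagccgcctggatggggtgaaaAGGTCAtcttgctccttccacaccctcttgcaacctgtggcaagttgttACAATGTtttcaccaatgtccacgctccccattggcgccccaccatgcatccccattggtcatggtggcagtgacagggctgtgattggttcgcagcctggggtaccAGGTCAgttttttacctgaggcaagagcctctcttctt
Sohlh1: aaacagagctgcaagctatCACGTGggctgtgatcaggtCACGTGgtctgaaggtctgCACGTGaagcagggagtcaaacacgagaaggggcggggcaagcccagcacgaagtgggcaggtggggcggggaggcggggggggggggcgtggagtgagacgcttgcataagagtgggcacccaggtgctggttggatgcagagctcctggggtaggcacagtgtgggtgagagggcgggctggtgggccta

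The Stra8 window held 2 AGGTCA hexamers, at 194 to 189 and at 38 to 33 bases before the start, and the ACATTGT match stood between them at 145 to 139 bases. Over 32851 promoter windows of the same length, searched on both strands, 14.0% held at least 1 AGGTCA, 1.36% held 2 or more and 2.56% held ACATTGT. The Sohlh1 window held 3 CACGTG E-boxes within its distal stretch, at 231 to 226, 211 to 206 and 192 to 187 bases, against 6.02% of windows with at least 1 and 0.0609% with 3 or more. The middle E-box overlapped the single AGGTCA of that window, at 215 to 210 bases. The general E-box CANNTG, which includes CACGTG, occurred 5 times in the Sohlh1 window, 1 time in that of Sohlh2, and in none of the Stra8, Kit or Kitl windows, while 66.2% of all windows held it. GC boxes (GGGCGG) were found in the windows of Sohlh1 and Kitl (3 each), Sohlh2 and Kit (1 each) but not in that of Stra8, against 32.7% of all windows. Such matches are letters in a window and do not show binding.

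Levels are log2 of the deposited intensity, and differences are Dmrt1 KO minus Control on that scale, tested in limma on all rows with Benjamini-Hochberg adjustment and a threshold of 0.05. The median intensity of the 6 arrays ran from 498 to 544. As a guide to background, 95% of 1064 olfactory receptor rows had a mean log2 level below 7.19, and both group means of all 5 genes lay above it. Dmrt1 KO replicate 3 stood apart, with Pearson's r of log2 levels to other arrays of at most 0.973, where no other pair was below 0.978. The targeted gene Dmrt1, on chromosome 19, had log2 levels of 11.98, 12.08 and 12.27 in the Dmrt1 KO arrays, against 13.59, 13.49 and 13.21 in Control arrays. The groups did not overlap, and the difference of -1.32 ± 0.20 (SE, n = 3 arrays per group) had a limma adjusted p of 0.124. The position of the Dmrt1 probes relative to the deleted part was not available to this comparison, so the level that remains in Dmrt1 KO arrays cannot be read as intact transcript.

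None of the 5 genes passed the adjusted threshold in limma, against 0.0312% of all rows (8 rows). Of those rows 7 were higher (0.0273%) and 1 was lower (0.00390%). The number depended on single arrays: it was 47 when Dmrt1 KO replicate 3 was left out, 3 when replicate 1 of that group was, and 0 when its replicate 2 or any 1 of the 3 Control arrays was. At an unadjusted p under 0.05 the 5 genes gave 1 higher (Sohlh1) and 1 lower (Stra8), where 4.41% of all rows were higher and 5.10% lower (9.50% in either direction). The same 2 genes were the ones whose groups did not overlap, which held for 6.80% of all rows in the higher and 8.54% in the lower direction. The counts of each gene list below are to be read beside these shares over all rows. Stra8 was 3.10-fold lower, Sohlh1 was 1.41-fold higher, and the intervals of Sohlh2, Kit and Kitl spanned 0.

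**Figure D1:**
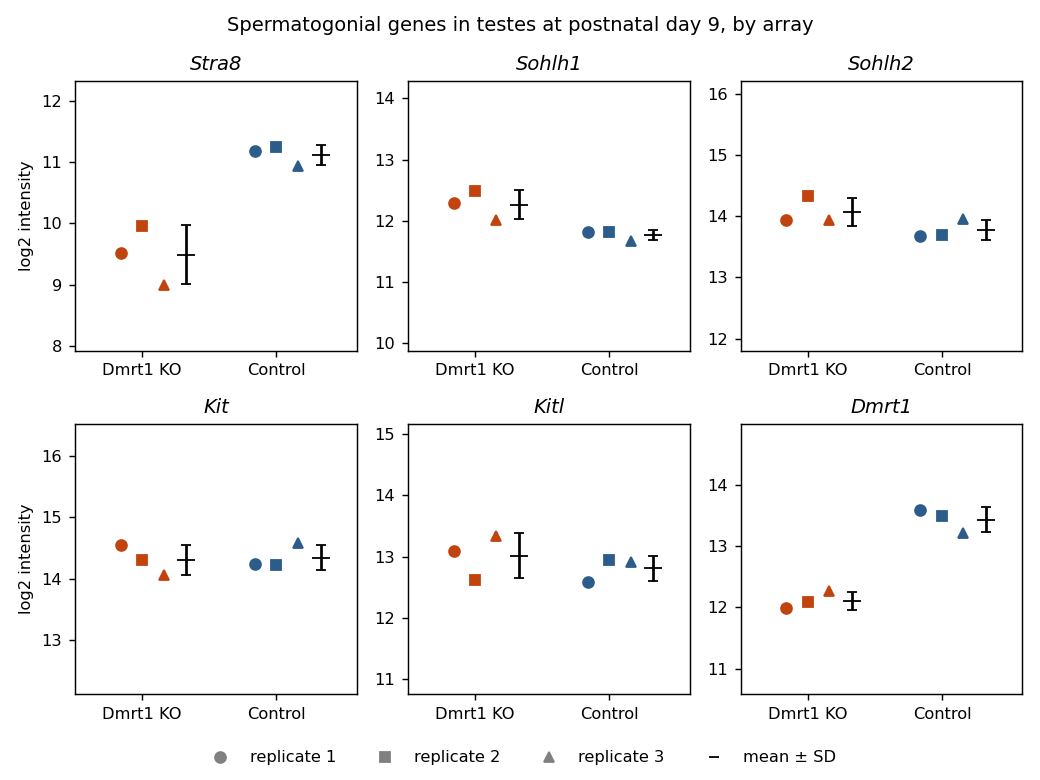
Log2 intensity of Stra8, Sohlh1, Sohlh2, Kit, Kitl and the targeted gene Dmrt1 in the 3 Dmrt1 KO arrays (left) and the 3 Control arrays (right), with marker shapes for replicates, which pair no samples, and bars for mean ± SD. Each panel spans the same log2 range. Stra8 and Dmrt1 lie lower in every Dmrt1 KO array, Sohlh1 lies higher, and the groups overlap for Sohlh2, Kit and Kitl.

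Stra8 (NM_009292, chromosome 6), the retinoic acid-induced gatekeeper of meiotic entry, had log2 levels of 9.51, 9.96 and 8.998 in Dmrt1 KO replicates 1, 2 and 3, against 11.18, 11.24 and 10.94 in Control replicates 1, 2 and 3. Every Dmrt1 KO array lay below every Control array, and 0.98 log2 units separated the highest Dmrt1 KO array from the lowest Control array. On the linear scale Stra8 averaged 745 ± 243 in Dmrt1 KO arrays and 2234 ± 242 in Control arrays (SD of intensity, n = 3 each). The difference was -1.63 ± 0.27 (SE, 95% interval -2.26 to -1.002, limma adjusted p = 0.147), the 58th smallest p of the whole table. It lies beyond the replicate spread, whose SD on the log2 scale was 0.48 in Dmrt1 KO and 0.16 in Control arrays, yet it did not pass across all rows. The adjusted p was 0.0239 when the 50% of rows with the lowest mean were left out and 0.0102 with a trended, robust variance prior, and it ran up to 0.595 when Control replicate 2 was left out. The titles carry array numbers that start in 3 ways, taken here as possible batches. Within array number group 1, with 1 array of each genotype, the difference was -1.67, and in group 2, with Dmrt1 KO replicate 2 and Control replicates 2 and 3, it was -1.13, while Dmrt1 KO replicate 3 was alone in group 3. With the mean of 11 germ cell markers subtracted from each array, chosen after seeing the data, the Stra8 difference was -1.53 (adjusted p = 0.107). In whole testes, fewer cells of a type and less RNA per cell cannot be told apart.

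Sohlh1 (NM_001001714, chromosome 2), the bHLH factor whose promoter carries the E-box cluster printed above, had log2 levels of 12.29, 12.49 and 12.01 in Dmrt1 KO arrays and 11.81, 11.82 and 11.67 in Control arrays. The 3 Dmrt1 KO arrays lay above the 3 Control arrays, by a gap of 0.19 log2 units, and the Control values were close to each other (SD 0.08, against 0.24 in Dmrt1 KO arrays). The difference was 0.50 ± 0.20 (SE, 95% interval 0.02 to 0.97, limma adjusted p = 0.508, unadjusted p = 0.0414). Within array number groups 1 and 2 it was 0.48 and 0.74. Across the 15 alternatives it stayed between 0.39 and 0.63 with an adjusted p from 0.239 to 0.798.

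Sohlh2 (NM_028937, chromosome 3), the partner bHLH factor, had log2 levels of 13.94, 14.33 and 13.93 in Dmrt1 KO arrays and 13.68, 13.69 and 13.96 in Control arrays. The groups overlapped through Control replicate 3, which lay above Dmrt1 KO replicates 1 and 3. The difference was 0.29 ± 0.21 (SE, limma adjusted p = 0.725), and its 95% interval, -0.19 to 0.77, corresponds to a Dmrt1 KO over Control ratio of 0.875 to 1.71.

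Kit (NM_021099, chromosome 5), the receptor that marks differentiating spermatogonia, had log2 levels of 14.55, 14.31 and 14.06 in Dmrt1 KO arrays and 14.24, 14.22 and 14.58 in Control arrays. Its groups overlapped fully: the highest Kit value of all was in Control replicate 3 and the lowest was in Dmrt1 KO replicate 3. The difference was -0.04 ± 0.22 (SE, limma adjusted p = 0.976), with a 95% interval of -0.55 to 0.47, or a ratio of 0.685 to 1.38. With 3 arrays per group a Kit change inside that interval could go undetected. The interval is not adjusted for the number of rows. The adjusted threshold is stricter, and Stra8 at -1.63, whose interval lies below 0, did not pass it. The sign of the Kit difference depended on the setting, and it was 0.086 without Dmrt1 KO replicate 3 and 0.079 without Control replicate 3.

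Kitl (NM_013598, chromosome 10), the ligand made by Sertoli cells, had log2 levels of 13.09, 12.62 and 13.34 in Dmrt1 KO arrays and 12.58, 12.94 and 12.91 in Control arrays. Dmrt1 KO replicate 3 was the highest of the 6 arrays, but Dmrt1 KO replicate 2 lay below Control replicates 2 and 3, so the groups overlapped. The difference was 0.21 ± 0.25 (SE, limma adjusted p = 0.855, 95% interval -0.36 to 0.77), or a ratio of 0.779 to 1.71. It was 0.51 within array number group 1 and -0.30 within group 2, so the array groups disagreed in sign. The Dmrt1 KO SD of Kitl, 0.36, was above its Control SD of 0.20. With the mean of 16 Sertoli cell markers subtracted from each array, chosen after seeing the data, the Kitl difference was 0.19.

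**Figure D2:**
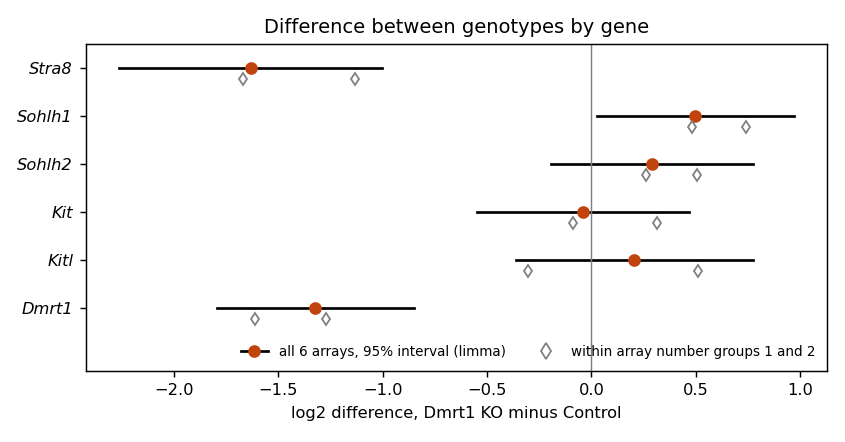
Log2 difference, Dmrt1 KO minus Control, of each gene over all 6 arrays with limma's 95% interval (dot and line), and within array number groups 1 and 2 (diamonds: group 1 has 1 array of each genotype, group 2 has 1 Dmrt1 KO and 2 Control arrays). The intervals of Stra8 (-2.26 to -1.002) and Dmrt1 lie below 0, that of Sohlh1 starts at 0.02, and those of Sohlh2, Kit and Kitl span 0.

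The genes of the set were also compared with each other, as differences of log2 level within each array, in 6 pairs by exact two-sided permutation over the arrays. With 3 against 3 arrays no p under 0.1 is possible, and the ratio of different probes has no absolute meaning, so only its shift between groups is read. Stra8 minus Sohlh1 gave the widest separation: the within-array difference averaged -2.78 ± 0.24 in Dmrt1 KO arrays and -0.65 ± 0.08 in Control arrays (SD, n = 3 each), a shift of -2.13 (exact permutation p = 0.1, 0.15 adjusted over the 6 pairs). The shift was -1.92 for Stra8 minus Sohlh2, -1.84 for Stra8 minus Kitl and -1.59 for Stra8 minus Kit, each with the smallest p the design allows and with no overlap between the groups. Each of these 4 shifts equals the Stra8 difference minus that of the other gene. They reuse the same Stra8 values and are not separate evidence for its lower level. Sohlh1 minus Sohlh2 shifted by 0.21 (exact permutation p = 0.4) and Kit minus Kitl by -0.24 (exact permutation p = 0.7), and the Kit minus Kitl shift was 0.042 without Dmrt1 KO replicate 3.

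Over the 6 arrays, Pearson's r of log2 levels was 0.75 between Sohlh1 and Sohlh2, the highest of the 10 pairs among the 5 genes. Stra8 ran against Kitl (-0.63), Sohlh1 (-0.64) and Sohlh2 (-0.51), and Kit had an r between -0.16 and 0.22 with the others. These 6 points share the genotype groups and array scaling, and they are given as a description. Among 12410 named rows with a mean above the background guide, the genes most like Stra8 were Sp6 (r = 0.998), Garem1, Ube2t, Zdhhc13 and Ago4, and their own differences ran from -0.45 (Zdhhc13) to -1.37 (Sp6). Kit was most like Xpo1 (0.995), Fkbp1b, Snap91, Pcdh7 and Ash1l. The rows nearest to Kitl were Cd151 (0.988), Nfkbia, Vdac2 and Dtna. For Sohlh1 they were Igtp (0.989), Hcar1, Pla1a, Rassf10 and Postn, and for Sohlh2 they were Pmm2 (0.993), Tpm4, Atf1, Rgn and Kdm3a.

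Other genes listed for spermatogonial differentiation lay on both sides of 0. The list is not limited to genes of differentiating cells, since it includes Neurog3. Of 14 listed genes 11 were measured, 7 above and 4 below 0 (48.0% of all rows were above), with a median difference of 0.05 beside -0.02 over all rows. None passed in limma, and 1 was higher and 0 were lower at an unadjusted p under 0.05. Rhox10, a reproductive homeobox gene, had log2 levels of 10.16, 9.77 and 9.98 in Dmrt1 KO arrays and 8.77, 9.12 and 9.22 in Control arrays, 1.92-fold higher (limma adjusted p = 0.251) with no overlap. Nanos3, an RNA-binding protein gene of germ cells, had a difference of -0.45 ± 0.25 (SE), and Dnmt3a, a de novo DNA methyltransferase gene, had one of 0.29 ± 0.24. Neurog3, a bHLH gene of early spermatogonia, had a difference of 0.11 ± 0.33, and Ccnd2, a cyclin gene that differentiating spermatogonia use, one of 0.05 ± 0.23. Dmrtb1, Rhox13 and Taf4b were not analysed here.

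Partners of the SOHLH factors, and genes that depend on them in mouse gonads, included Nobox, with a larger difference than any of the 5 genes. All 17 listed genes were measured, 11 above and 6 below 0, with a median of 0.10, and 0 passed in limma while 2 were higher and 0 lower at an unadjusted p under 0.05. The list mixes partners, inhibitors and dependent genes, so its counts and median do not measure the activity of the SOHLH factors. Nobox, a homeobox gene of oocytes that depends on SOHLH1 in the mouse ovary, had log2 levels of 11.32, 11.12 and 10.08 in Dmrt1 KO arrays and 8.55, 8.66 and 8.36 in Control arrays. All Dmrt1 KO arrays were above all Control arrays, 4.98-fold on average (2.32 ± 0.33, SE, limma adjusted p = 0.0948). Without Dmrt1 KO replicate 3 Nobox passed (2.70, adjusted p = 0.00461), as it did without the 50% of rows lowest in mean (0.00977), with a trended and robust prior (0.00324), with array weights (0.0123), with array number groups blocked (0.0109) and with the germ cell marker mean subtracted (0.0404). It did not pass in the other 9 of 15 alternatives, with adjusted p of 0.0774 after quantile normalization, 0.0763 with array medians subtracted, 0.0742 with log2(value + 50), 0.116 with the Sertoli cell marker mean subtracted, and 0.201 to 0.486 when Dmrt1 KO replicate 1 or 2 or any 1 of the Control arrays was left out.

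The other oocyte genes of the list did not share the size of the Nobox difference. Figla, a bHLH gene of oocytes, had a difference of 0.57 ± 0.26 (SE), and Lhx8, a LIM homeobox gene of oocytes, had one of 0.00 ± 0.21. Pou5f1, a pluripotency gene also active in undifferentiated spermatogonia, had log2 levels of 13.20, 13.30 and 13.31 in Dmrt1 KO arrays and 12.00, 10.96 and 12.62 in Control arrays (1.41 ± 0.39, SE, limma adjusted p = 0.314), with no overlap and a wide Control spread. The E-proteins, general bHLH partners, gave -0.31 (Tcf3), 0.26 (Tcf4) and -0.11 (Tcf12), and the inhibitors of bHLH factors gave 0.52 (Id3), 0.33 (Id1), 0.11 (Id2) and -0.22 (Id4), with no E-protein or inhibitor past the threshold.

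KIT acts through adaptors, phosphatidylinositol 3-kinase and the RAS-MAP kinase cascade. Of 31 listed genes of that signalling chain 30 were measured, 15 above and 15 below 0, with a median of 0.00 and a range from -0.37 to 0.72. None passed in limma, and none reached an unadjusted p under 0.05 in either direction. Pik3cd, a catalytic subunit of the kinase, had a difference of 0.72 ± 0.34 (SE), and Ptpn6, a phosphatase that restrains KIT, had one of 0.49 ± 0.26. The groups did not overlap for 3 genes in the higher and 1 in the lower direction.

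**Figure D3:**
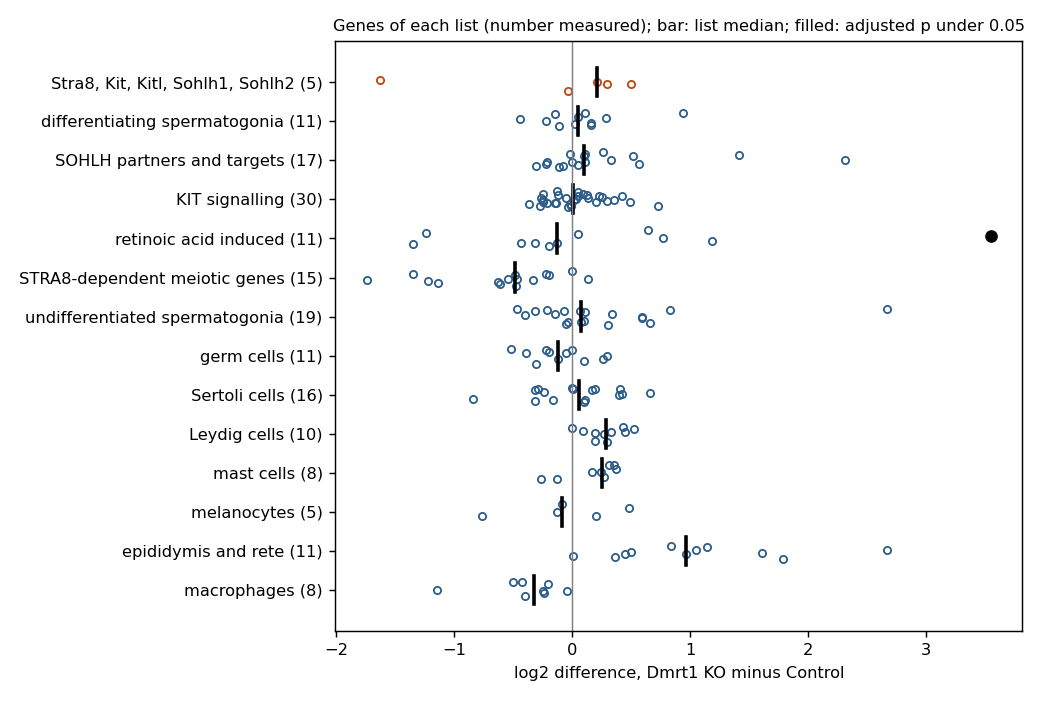
Log2 difference, Dmrt1 KO minus Control, of every measured gene of each list (open circles, with the number measured in brackets), the list median (bar) and the 1 gene with an adjusted p under 0.05 (filled circle, Crabp2). Vertical position within a row has no meaning. The meiotic genes lie mostly below 0 and the epididymis and rete markers above it, while the KIT signalling genes centre on 0.00.

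Genes that retinoic acid induces, as it does Stra8, lay on both sides of 0. Of 12 listed 11 were measured, 5 above and 6 below 0, with a median of -0.13, and at an unadjusted p under 0.05 there were 3 higher and 2 lower, the lower ones being Cyp26a1 and Rec8. Crabp2, a cellular retinoic acid binding protein gene, was the 1 gene of all the lists that passed the adjusted threshold. It was higher in Dmrt1 KO arrays (limma adjusted p = 0.00841), with log2 levels of 9.73, 9.56 and 9.05 in Dmrt1 KO arrays and 6.27, 5.70 and 5.70 in Control arrays. Since all Control values lay under the background guide, its size is given as at least 4.77-fold, the Dmrt1 KO mean against that guide. Crabp2 passed in 10 of 14 alternatives and did not pass without Dmrt1 KO replicate 2 (adjusted p = 0.109) or without Control replicate 1 (0.0999), 2 (0.134) or 3 (0.116). Cyp26a1, an enzyme gene that degrades retinoic acid, had log2 levels of 7.46, 6.94 and 6.42 in Dmrt1 KO arrays and 8.29, 8.18 and 8.06 in Control arrays (-1.24 ± 0.28, SE, limma adjusted p = 0.241). Its groups did not overlap, as with Stra8, and its Dmrt1 KO mean was under the background guide. Dhrs3, a retinaldehyde reductase gene, had a difference of 1.18 ± 0.32 (SE) with both group means under that guide.

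Meiotic prophase genes, listed for a known link to STRA8, mostly lay below 0. Whether each of them depends on STRA8 was not tested, and Rec8 is also in the list of genes that retinoic acid induces. Of 24 listed genes 15 were measured, 14 below and 1 above 0 (52.0% of all rows were below), with a median difference of -0.49. None passed in limma. At an unadjusted p under 0.05, 4 were lower and 0 higher, where 5.10% of all rows were lower and 4.41% higher. With no overlap 6 were lower, which held for 8.54% of all rows. Rec8, a meiotic cohesin gene that retinoic acid also induces, had log2 levels of 8.01, 7.42 and 6.23 in Dmrt1 KO arrays and 8.85, 8.54 and 8.31 in Control arrays, a difference of -1.35 ± 0.43 (SE, limma adjusted p = 0.38). Its Dmrt1 KO mean, 7.22, was close to the background guide of 7.19, and Dmrt1 KO replicate 3 was under that guide. Hfm1, a meiotic helicase gene, had 8.73, 8.57 and 7.37 in Dmrt1 KO arrays and 10.27, 10.71 and 8.92 in Control arrays (-1.74 ± 0.52). Msh5, a crossover gene, gave -1.23 ± 0.37, with the lowest value in Dmrt1 KO replicate 3. That array was the lowest of all 6 for Stra8, Rec8, Hfm1, Msh5 and the recombinase gene Dmc1 (-1.14 ± 0.37). Without it the list median was -0.35, and it was -0.39 and -0.33 within array number groups 1 and 2. Sycp3, a synaptonemal complex gene, gave -0.20 ± 0.26, and Stag3, another meiotic cohesin gene, gave 0.14 ± 0.25.

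**Figure D4:**
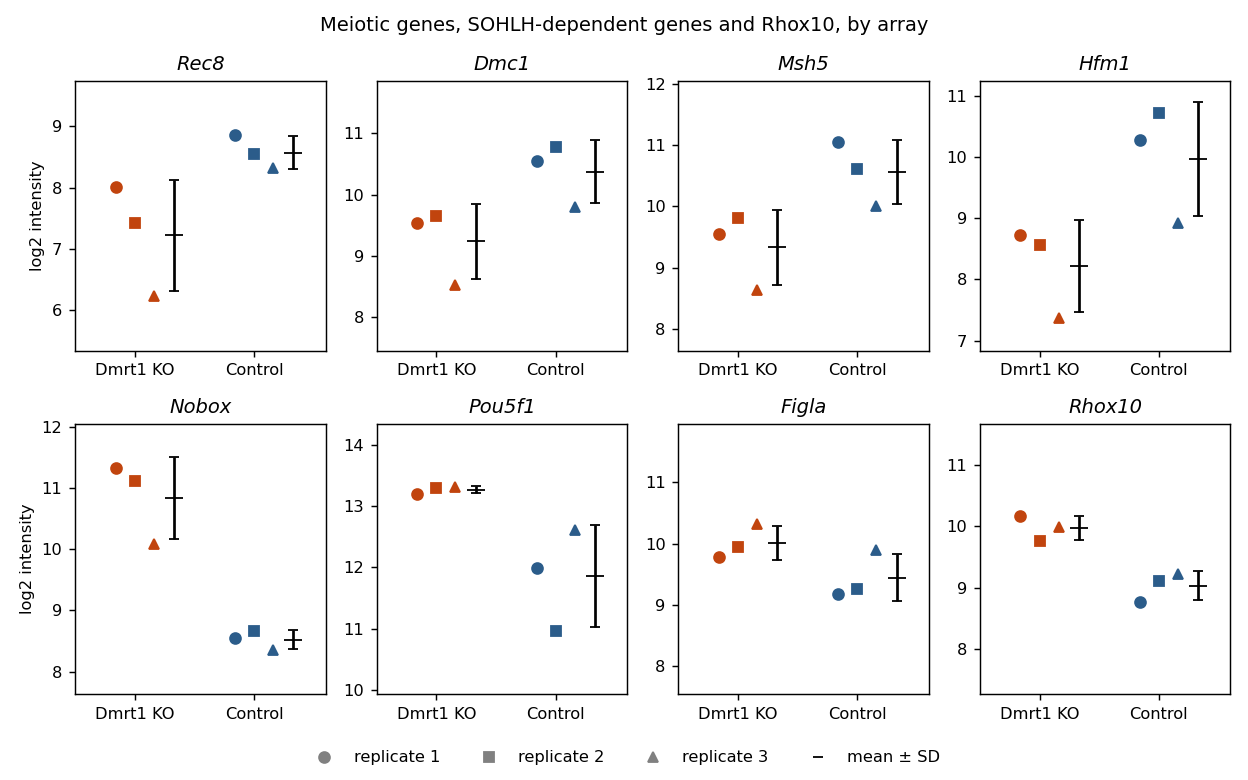
Log2 intensity of 4 meiotic genes (Rec8, Dmc1, Msh5, Hfm1), of Nobox, Pou5f1 and Figla, which depend on SOHLH factors in mouse gonads, and of Rhox10, in Dmrt1 KO arrays (left) and Control arrays (right), with bars for mean ± SD. Each panel spans the same log2 range. The 4 meiotic genes have the smallest p of the 15 measured, of which 6 were lower with no overlap. These 4 lie lower and Nobox, Pou5f1 and Rhox10 higher in every Dmrt1 KO array. Rec8 is under the background guide in Dmrt1 KO replicate 3. The groups overlap for Figla, and none of the 8 genes shown passed over all rows.

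Markers of the cells that make or could carry these transcripts were measured on the same arrays. General germ cell markers (11 of 14 measured) had a median difference of -0.12 (0.05 without Dmrt1 KO replicate 3), with 0 past the limma threshold and 1 lower (Tex11, -0.52 ± 0.21, SE) at an unadjusted p under 0.05. Mael (-0.005) is also in the list of meiotic genes, so the germ cell list is not separate from that list. The germ cell marker intensities of an array summed to 148643 to 190713 in Dmrt1 KO arrays and 179433 to 191658 in Control arrays, so the sums overlapped. Genes of undifferentiated spermatogonia (19 of 19 measured) had a median of 0.08, with 0 past the threshold and 5 higher at an unadjusted p under 0.05. Their sums, 47244 to 56649 in Dmrt1 KO arrays and 29860 to 44414 in Control arrays, did not overlap, but this rested on Cdh1. Without it they overlapped, at 42629 to 49046 in Dmrt1 KO arrays and 29229 to 42983 in Control arrays. Cdh1 (2.67 ± 0.37, limma adjusted p = 0.083) gave the smallest p, followed by Upp1 (0.66 ± 0.24) and Thy1 (0.59 ± 0.22). Sertoli cell markers, beside which Kitl is to be read, had a median of 0.06 over 16 of 18 genes, with Trf at 0.66 ± 0.20 and Tsx at -0.84 ± 0.28, 0 past the threshold, and 1 higher and 1 lower at an unadjusted p under 0.05. Their sums overlapped, at 203083 to 240904 in Dmrt1 KO arrays and 228443 to 237194 in Control arrays.

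Leydig cells, mast cells and melanocytes also express Kit. Leydig cell markers (10 of 10 measured) had a median of 0.28 with 9 above 0, and their sums were 132526 to 152685 in Dmrt1 KO arrays and 96462 to 122294 in Control arrays. None of them passed in limma or had an unadjusted p under 0.05. For mast cell markers (8 of 8 measured) the median was 0.25 with overlapping sums of 5421 to 5809 in Dmrt1 KO arrays and 4968 to 6545 in Control arrays, and both group means of Mrgprb1, Fcer1a and Ms4a2 were under the background guide. Melanocyte markers (5 of 6 measured) had a median of -0.09, with overlapping sums of 1305 to 1878 in Dmrt1 KO arrays and 1678 to 2089 in Control arrays, Tyr and Tyrp1 under the guide in both groups and Mitf at -0.76 ± 0.23 (SE). In both lists together 0 genes passed in limma, with 1 lower (Mitf) and 0 higher at an unadjusted p under 0.05.

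All 11 epididymis and rete markers lay above 0, with a median of 0.96 and sums of 10421 to 18002 in Dmrt1 KO arrays and 3292 to 6076 in Control arrays. Of these 0 passed and 5 were higher at an unadjusted p under 0.05. In rising order of p the 5 were Cdh1 (also in the list of undifferentiated spermatogonia), Krt18 (1.79 ± 0.33, SE), Pax8 (1.14 ± 0.23), Krt19 and Krt8. The groups did not overlap for Cdh1, Krt18 and Pax8 only. They overlapped for Krt19, Krt8, Crisp1, Lcn5, Lcn8, Defb2, Adam7 and Pax2. Both group means of Lcn5, Lcn8 and Adam7 were under the background guide. Whether the samples differed in attached epididymal tissue was not tested. Crisp1 varied widely within both groups, so that its groups overlapped (1.61 ± 1.83, SE). Its log2 levels were 9.73, 10.96 and 4.46 in Dmrt1 KO arrays and 9.70, 4.11 and 6.49 in Control arrays. Pax2 had a difference of 0.01. All 8 measured macrophage markers lay below 0, with a median of -0.32 and sums of 12278 to 13183 in Dmrt1 KO arrays and 14317 to 16883 in Control arrays. Of the macrophage genes 0 passed and 1 (Cd163, -1.15 ± 0.30, all Dmrt1 KO values under the background guide) was lower at an unadjusted p under 0.05. The sums of the epididymis and rete list did not overlap between the groups with any 1 gene left out (5806 to 10398 in Dmrt1 KO arrays and 2661 to 4800 in Control arrays without Cdh1). Those of the other marker lists that separated the groups overlapped without 1 gene: Mrc1 for macrophages, Hsd17b3 for Leydig cells and Cdh1 for undifferentiated spermatogonia. Leaving out single genes was chosen after seeing the data. The part of these markers in the Stra8 and Sohlh1 differences was not tested.

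**Figure D5:**
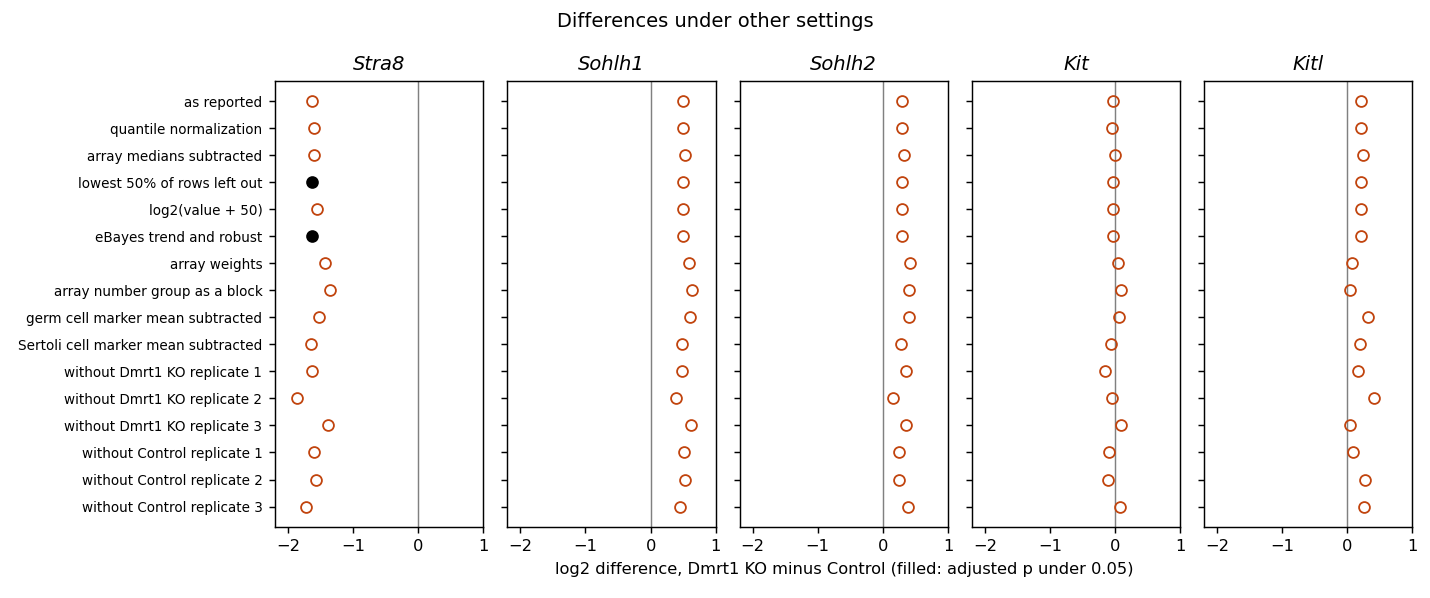
Log2 difference, Dmrt1 KO minus Control, of Stra8, Sohlh1, Sohlh2, Kit and Kitl as reported and under 15 other settings (rows), on one axis range for all panels. Filled points passed an adjusted p of 0.05: Stra8 without the lowest 50% of rows and with a trended, robust prior. Stra8 stays between -1.87 and -1.36 and Sohlh1 between 0.39 and 0.63, while Kit lies on both sides of 0.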

How the data were processed

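Cy3-labelled cDNA from total testis RNA was measured on NimbleGen mouse 60mer arrays, 1 sample each, per the labels' protocols. The deposited table holds linear intensity (8.81 to 65190), 1 value per RefSeq accession and array, and RMA is the tool named per the submitters' processing notes; its version and background step, and the probe positions, were not given in the sources used here. Because the deposited intensity was not logged, log2 of it was taken, with no filter or further normalization. Accessions were matched without version to GRCm38.p6 symbols (17780 rows, 69.4%); where a gene had several rows, the one with the highest mean stood for it. Only promoter windows carry coordinates, since the build of the array design differs.

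Each row was tested in limma 3.58.1 (R 4.3.3; lmFit, eBayes, 4 residual and 3.96 prior degrees of freedom), Dmrt1 KO against Control, all 6 arrays in 1 fit, adjusted over 25631 rows, and the script was tested on simulated data. Errors are moderated SE. Samples were grouped by title; replicate numbers follow accession order. The start of the array number in the titles gave 3 array number groups, with Dmrt1 KO replicate 3 alone in group 3. Lists held 190 different genes, 170 measured. The genes, lists and tests were chosen with earlier results of these data known, that of Nobox included. Named beside the 5 genes were Dmrt1, up to 3 genes per list with the smallest p, and the 5 rows most alike by Pearson's r. Others were chosen after their values were seen (Neurog3, Ccnd2, Lhx8, the E-proteins and inhibitors, Dmc1, Sycp3, Stag3, Mael, Krt19, Krt8, Defb2, Crisp1, Pax2 and the markers under the background guide). A few genes that these rules name are not reported here. Promoter sequences are from RefSeq, with a window for each of the 5 genes (for Kit, the first of 2). Alternatives changed the scaling, the row filter, an added constant of 50, the variance prior, array weights, a batch block, a subtracted marker mean and the arrays left out. Figures used matplotlib 3.10.9. The number of arrays limits the precision.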

Additional observations from a re-analysis of the deposited data

How the results depend on the processing

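Of 15 alternatives, Stra8 kept its sign in all, at -1.87 to -1.36, and passed the adjusted threshold in 2: with the lowest 50% of rows left out (-1.63, adjusted p = 0.0239) and with a trended, robust prior (-1.63, 0.0102). Without the lowest 50% of rows, fewer rows were tested and the SE of Stra8 was also smaller (0.24, against 0.27 as reported). Its unadjusted limma p was then 3.36e-05, against 0.000336 as reported. Leaving out single arrays gave -1.87 to -1.39 for Stra8 (adjusted p 0.0885 to 0.595), 0.39 to 0.62 for Sohlh1, 0.16 to 0.38 for Sohlh2, and 0.04 to 0.40 for Kitl. Sohlh1, Sohlh2 and Kitl kept sign and side of the threshold in all 15. Kit turned sign with array weights (0.041), with a block for the array number group (0.084), with the germ cell marker mean subtracted (0.067), and over single arrays left out it ran from -0.16 to 0.086. The Kit minus Kitl shift was 0.040 with the block and -0.44 to 0.042 over single arrays left out, and the other 5 pairs kept their sign. The cause of these turns was not tested. The block gives Dmrt1 KO replicate 3, alone in its array number group, no weight.

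Rows called over the whole table, 8 as reported, were 52 without the lowest 50% of rows, 81 with a trended, robust prior, 60 with array weights, 49 with the block, 16 with the germ cell marker mean and 5 with the Sertoli cell marker mean subtracted (both chosen after seeing the data), and 34 at an adjusted p of 0.1. Over single arrays left out they ran from 0 to 47; the fits with 0 calls had, at an unadjusted p under 0.05, 806 to 1055 rows that were higher and 816 to 1250 that were lower. The mean of several rows per gene gave nothing else, since each gene had 1 row. No paired analysis was possible because the labels give no replicate numbers that the groups share. Both group means of all 5 genes lay above the background guide.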
